A study of Mus musculus with 12 samples.

Results

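Pre-BMPs were compared with Pro-BMPs, a pair of progenitor populations sorted from the bone marrow of C57BL/6 mice and sequenced as 3 libraries each. The title of the series places both on the way to the basophil and mast cell fate. Pre-BMPs were gated for the alpha chain of the high-affinity IgE receptor at the surface (FceRIa+) and are labelled as lacking surface E-cadherin (CDH1-). Pro-BMPs were gated the other way round, as CDH1+ and FceRIa-. The rest of the gate was common to both populations: no B220, CD3, Ter119, CD11b, Gr1 or Sca1, with c-Kit, CD34 and CD16/32 present. These 6 libraries belong to a set of 12, which also holds 3 of DN-GMPs, sorted by the same gate but with neither CDH1 nor FceRIa, and 3 of basophils (CD49b+ and FceRIa+, without B220, CD4, CD8a, Ter119, Sca1 or c-Kit). All cells were double-sorted from mice with no allele or treatment named. The 6 libraries were taken by their labels and not by their values, and all 14560 genes of the deposited table were compared. The series names 3 mice, but no label ties a replicate number to a mouse, and p-values therefore reflect variation from library to library, which may be technical. In sorted pools like these, fewer cells of a type and less RNA per cell cannot be told apart.

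Mast cells and basophils bind IgE through the same receptor, which joins an IgE-binding alpha chain, a beta chain that amplifies the signal and a gamma chain shared with other Fc receptors. When it is cross-linked, they release histamine, lipid mediators, cytokines and serine proteases, many of them stored in granules on sulfated proteoglycan. Their progenitors sit among the granulocyte-monocyte progenitors, which otherwise give neutrophils and monocytes. Cells on the neutrophil path make the proteases and peroxidase of the primary granules early, and lactoferrin and other later granule proteins near maturity.

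The promoters of 6 genes that mark the step are printed here, chosen for their place in the results: the alpha and beta receptor chains Fcer1a and Ms4a2 and the mast cell chymase Cma1, which were higher in Pre-BMPs, and the receptor Csf3r, the repressor Gfi1 and the elastase Elane, which were lower. Each sequence is the RefSeq window (build GRCm38.p6) of 250 bases before to 50 after the gene start, read 5′ to 3′ on the gene's strand. Capitals mark GATA letters (AGATAA, with T also allowed as the first letter and G as the last), C/EBP letters (TTGCNNAA) or PU.1 letters (GAGGAAGT), searched on both strands, and no marked matches overlap in these windows. The E-box letters CACATG and CACGTG were searched as well and are not in capitals. Some genes have several windows in the RefSeq table. The first entry of each named gene was read, so its matches cover that window only. The windows lie at chr1:173227180-173227479 for Fcer1a, chr19:11623670-11623969 for Ms4a2 and chr14:55944626-55944925 for Cma1, all on the minus strand. Those of the genes that were lower lie at chr4:126024409-126024708 on the plus strand for Csf3r, chr5:107725756-107726055 on the minus strand for Gfi1 and chr10:79886062-79886361 on the plus strand for Elane.
Fcer1a: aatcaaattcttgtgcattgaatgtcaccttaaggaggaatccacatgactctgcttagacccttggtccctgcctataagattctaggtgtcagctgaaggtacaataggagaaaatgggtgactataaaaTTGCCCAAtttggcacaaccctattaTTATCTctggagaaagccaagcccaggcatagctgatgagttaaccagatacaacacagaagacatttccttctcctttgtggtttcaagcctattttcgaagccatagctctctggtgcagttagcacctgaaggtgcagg
Ms4a2: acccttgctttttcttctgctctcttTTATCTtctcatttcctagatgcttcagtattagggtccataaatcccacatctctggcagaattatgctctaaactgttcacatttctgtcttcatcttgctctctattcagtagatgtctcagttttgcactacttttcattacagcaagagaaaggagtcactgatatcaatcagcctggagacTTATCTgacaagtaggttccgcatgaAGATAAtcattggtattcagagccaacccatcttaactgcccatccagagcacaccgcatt
Cma1: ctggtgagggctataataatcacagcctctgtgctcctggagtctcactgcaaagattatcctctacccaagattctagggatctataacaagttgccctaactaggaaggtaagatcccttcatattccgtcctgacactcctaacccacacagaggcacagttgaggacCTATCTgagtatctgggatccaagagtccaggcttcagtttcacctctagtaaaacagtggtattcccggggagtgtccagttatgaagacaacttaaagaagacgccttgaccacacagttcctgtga
Csf3r: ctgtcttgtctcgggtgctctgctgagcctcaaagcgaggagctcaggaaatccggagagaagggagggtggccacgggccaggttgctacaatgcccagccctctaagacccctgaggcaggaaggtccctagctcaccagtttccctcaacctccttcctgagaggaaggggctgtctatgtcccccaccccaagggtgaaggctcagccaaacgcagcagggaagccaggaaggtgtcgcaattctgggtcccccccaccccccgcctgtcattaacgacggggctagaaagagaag
Gfi1: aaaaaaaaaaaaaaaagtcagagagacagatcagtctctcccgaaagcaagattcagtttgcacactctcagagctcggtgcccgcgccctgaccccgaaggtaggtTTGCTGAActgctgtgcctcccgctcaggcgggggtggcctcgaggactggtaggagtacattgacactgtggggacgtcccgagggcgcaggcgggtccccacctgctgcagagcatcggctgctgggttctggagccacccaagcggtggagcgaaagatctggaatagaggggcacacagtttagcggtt
Elane: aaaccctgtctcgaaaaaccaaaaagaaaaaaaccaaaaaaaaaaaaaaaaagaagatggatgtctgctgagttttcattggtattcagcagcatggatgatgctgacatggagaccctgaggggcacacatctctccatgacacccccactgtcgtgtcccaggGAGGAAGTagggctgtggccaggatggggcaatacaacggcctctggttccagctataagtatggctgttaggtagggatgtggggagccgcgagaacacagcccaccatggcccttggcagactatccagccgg
The Fcer1a window held 1 GATA, 1 C/EBP and 1 E-box match, the Ms4a2 window 3 GATA matches and the Cma1 window 1 GATA match. The Gfi1 window held 1 C/EBP match, the Elane window 1 PU.1 match and the Csf3r window none of these letters. Of 2 further genes called higher whose windows were read and are not printed, Cpa3 had 1 GATA match and Gata2 had none. Of all 32851 promoters of the same length in the RefSeq table, 29.8% held the GATA letters, 10.8% the C/EBP letters, 3.2% the PU.1 letters and 20.4% the E-box letters. A match describes the letters of the window and shows no binding. The table had a promoter for 9782 of the 14553 gene symbols tested (67.2%), and among their 12421 promoters the shares were 19.2%, 8.71%, 3.33% and 17.9% in the same order. It had one for 76.4% of the genes called higher and 79.4% of those called lower, both under the 80% set as the least for such a check, so shares by call are void and not given. The tryptase Tpsb2 is named in the results without a sequence.

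Levels are given in CPM, the reads of a gene scaled by the library size behind the deposited values, and are compared between populations, not between genes. The Pre-BMP libraries held 35602065 to 37458352 reads on genes and the Pro-BMP libraries 34195323 to 42502405, so that 3 reads, the most that a count of 0 allows, are 0.0512 to 0.0647 CPM in these 6. Reads outside annotated features made up 9.15% to 10.2% of the Pre-BMP libraries and 7.69% to 8.42% of the Pro-BMP libraries, and the part of this difference in the results was not tested. Log2 differences are Pre-BMPs minus Pro-BMPs, with standard errors (SE) from limma, and a gene was called at a limma adjusted p under 0.05.

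Of the 14560 genes, 1382 were called (9.49%), with 699 higher in Pre-BMPs (4.80%) and 683 lower (4.69%). Among them, 752 differed by at least 1 on the log2 scale. Pro-BMPs had 0 reads in every library for 46 of the genes called higher, and Pre-BMPs had 0 reads in every library for 34 of those called lower. The 3 libraries of one population stood apart from the 3 of the other in 4662 genes (32.0%, 16.0% higher and 16.0% lower in Pre-BMPs), and in all but 2 of those called. The median difference of all genes was 0.0204. The number called depended on single libraries: with 1 left out, it was 778 (without Pro-BMP replicate 2) to 1093 (without Pro-BMP replicate 3), and it was also over 1.5 times smaller without Pre-BMP replicate 3 (792) or Pro-BMP replicate 1 (885).

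**Figure D1:**
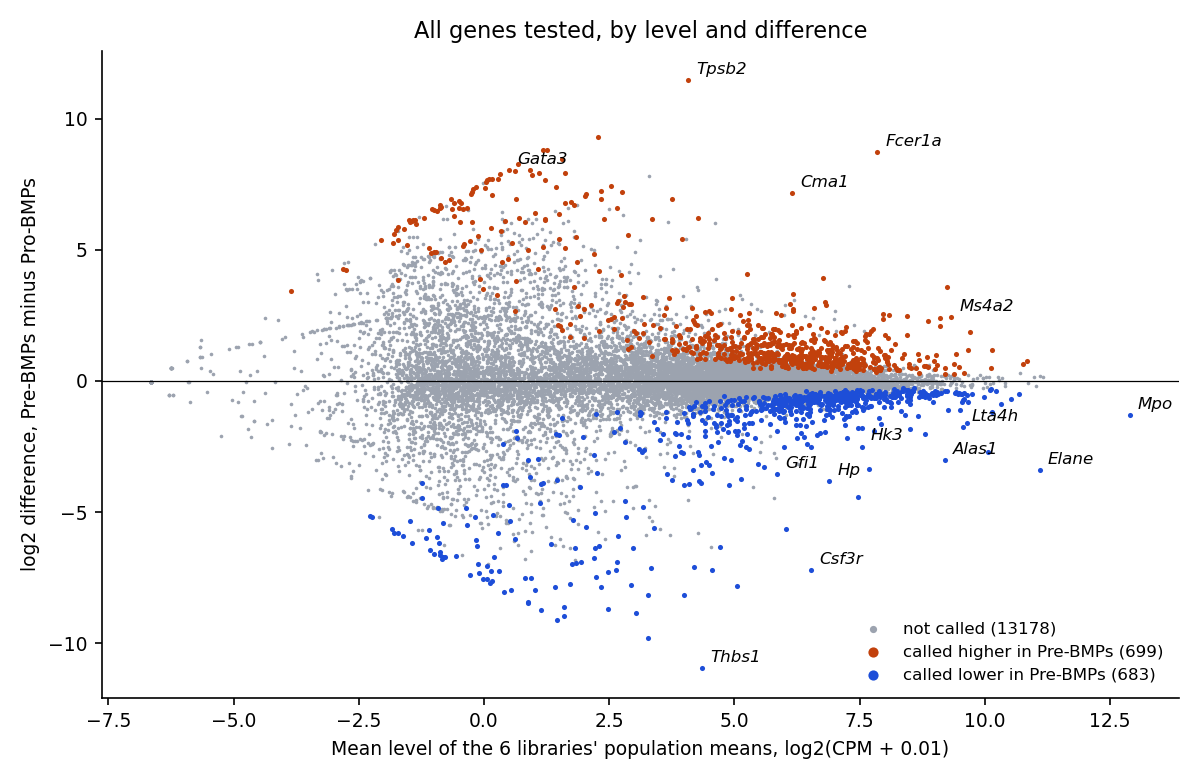
Log2 difference, Pre-BMPs minus Pro-BMPs (vertical axis), of each gene tested against its level, the log2 of the mean CPM of both populations plus 0.01 (horizontal axis). The 699 genes called higher and the 683 called lower lie on both sides of 0, Tpsb2 stands at the top and Thbs1 at the bottom, and Mpo and Elane lie at the right, below 0.

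The genes of the gate and the markers of the step came first, since they check the labels. Fcer1a (ENSMUSG00000005339, GRCm38 chromosome 1, 173221284 to 173227214, minus strand), whose product defines Pre-BMPs, was measured at 477, 421 and 475 CPM in Pre-BMPs and at 0.419, 0.862 and 3.4 CPM in Pro-BMPs. The populations stood far apart, with a log2 difference of 8.72 (SE 0.566, limma adjusted p = 8.02e-06), and every library followed its FceRIa label. Cdh1 (ENSMUSG00000000303, chromosome 8, 106603351 to 106670246, plus strand), which encodes E-cadherin, had 157, 105 and 178 CPM in Pre-BMPs, against 56, 33.6 and 38.8 CPM in Pro-BMPs. Its RNA was thus above that of Pro-BMPs in each Pre-BMP library, although the gate gives the protein as absent there, and the files hold no protein measurement. The difference of 1.78 (SE 0.492, limma adjusted p = 0.0449) was no longer called when any 1 of the 6 was left out (limma adjusted p from 0.0631 to 0.152).

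Other genes of the common gate differed less or were not called. Ptprc, which encodes CD45 and so the B220 that the gate excluded, had 241, 191 and 259.7 CPM in Pre-BMPs and 142, 150.2 and 168 CPM in Pro-BMPs (log2 difference 0.58, SE 0.137, limma adjusted p = 0.0224). That call was lost without Pre-BMP replicate 1 or 3 or Pro-BMP replicate 1 or 2 (0.0729 to 0.0928). Kit, the stem cell factor receptor, had 381, 489 and 519.8 CPM in Pre-BMPs and 314, 289.7 and 304 CPM in Pro-BMPs, and was not called (limma adjusted p = 0.304), though its groups did not overlap. Under 2 of the alternatives Kit was called. Cd34 was at 281 ± 34.5 CPM in Pre-BMPs and 312 ± 24.2 in Pro-BMPs (SD, n = 3 each), with limma adjusted p = 0.818. Itgam, which encodes the CD11b that the gate excluded, was low in both, at 1.94 ± 0.644 and 6.13 ± 3.78 CPM in Pre-BMPs and Pro-BMPs, and was not called (limma adjusted p = 0.0868). Fcgr3 and Fcgr2b, the low-affinity IgG receptors that the CD16/32 antibody binds, and Ly6a, which encodes Sca1, were not called either.

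The other markers split in direction. Tpsb2 (ENSMUSG00000033825, chromosome 17, 25366305 to 25369098, plus strand), a tryptase of mast cell granules with close relatives beside it in the genome, had 24.7, 61.4 and 14.6 CPM in Pre-BMPs and 0 reads in all Pro-BMP libraries. Set against 3 reads per Pro-BMP library, its level in Pre-BMPs was at least 563-fold higher (limma adjusted p = 6.24e-05). Cma1 (ENSMUSG00000022225, chromosome 14, 55941451 to 55944675, minus strand), a mast cell chymase, had 127, 227 and 68.1 CPM in Pre-BMPs, against 1.74, 0.69 and 0.547 CPM in Pro-BMPs. Its difference was 7.16 (SE 1.15, limma adjusted p = 0.00292). Both proteases ran in the same order over the Pre-BMP libraries, replicate 2 above replicate 1 above replicate 3, and no Pro-BMP library came near.

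Csf3r (ENSMUSG00000028859, chromosome 4, 126024550 to 126044440, plus strand), the receptor for the granulocyte growth factor G-CSF, had 0.346, 7.32 and 0.689 CPM in Pre-BMPs and 168, 175 and 201 CPM in Pro-BMPs. Its log2 difference was -7.21 (SE 0.95, limma adjusted p = 0.00081), and Pre-BMP replicate 2 held most of what was left. Gfi1 (ENSMUSG00000029275, chromosome 5, 107716657 to 107726036, minus strand), a repressor that neutrophil formation needs, had 9.43, 7.13 and 11.2 CPM in Pre-BMPs and 98, 106 and 113 CPM in Pro-BMPs. It fell by 3.54 (SE 0.325, limma adjusted p = 7.44e-05), with little spread in either population. The 5 markers kept their calls under every alternative run.

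**Figure D2:**
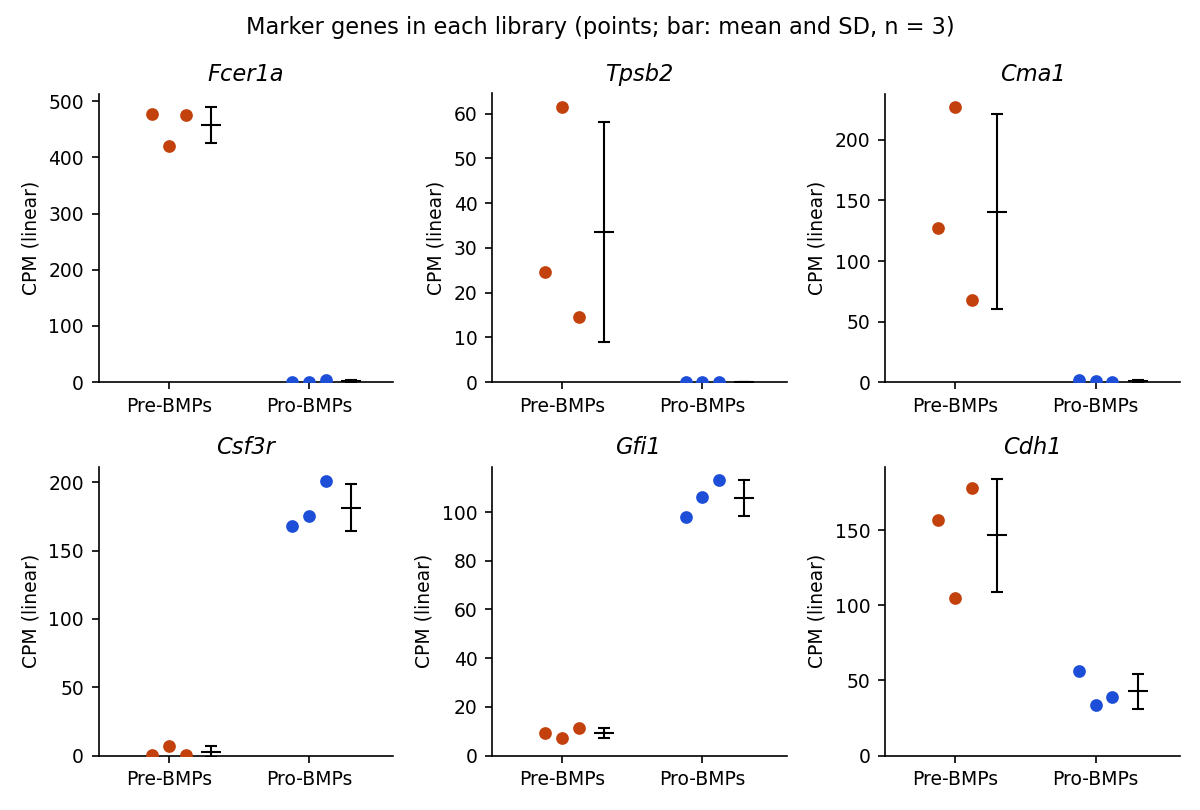
CPM of the 5 marker genes and Cdh1 (vertical axes, linear, from 0) in the 3 Pre-BMP and the 3 Pro-BMP libraries (horizontal axes), where each dot is a library and the bar is their mean with its SD. The populations do not overlap in any panel: Fcer1a, Tpsb2, Cma1 and Cdh1 are higher in Pre-BMPs, and Csf3r and Gfi1 are lower.

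Among called genes with at least 10 CPM in the higher population and groups that did not overlap, the 12 largest rises were Tpsb2, Fcer1a, Cma1 and 9 genes near 0 in Pro-BMPs: Lrrc66, Alox12e, Aqp9, Ahnak, Rab19, Nckap1, Atp8b1, Mpp4 and Eya2. Aqp9, a channel for water and glycerol, had 14.4, 30.4 and 33.6 CPM in Pre-BMPs and 0, 0.884 and 0.888 CPM in Pro-BMPs, a difference of 6.92 (SE 1.74, limma adjusted p = 0.03). Nckap1, a subunit of the WAVE complex that drives actin branching, had 11.1, 11.9 and 7.5 CPM in Pre-BMPs and 0, 0.28 and 0.837 CPM in Pro-BMPs (log2 difference 6.18, SE 1.35, limma adjusted p = 0.0153). These rises from near 0 were less firm than those of the markers. Nckap1 was not called without Pre-BMP replicate 2 (limma adjusted p = 0.0507), Atp8b1 was not called with voom weights, and the other 7 lost the call without at least 3 different single libraries.

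The 12 largest falls by the same rule were Thbs1, S1pr3, Clec5a, Nrg2, Csf1r, Prss16, Hsd11b1, F10, Cyp2j6, Tlr4, Csf3r and Rab7b. S1pr3, a receptor for the lipid sphingosine 1-phosphate, had 0, 0 and 0.0957 CPM in Pre-BMPs, against 16.6, 20.8 and 20.5 CPM in Pro-BMPs. It fell by 9.79 (SE 0.872, limma adjusted p = 6.24e-05), and no library went against this. Hsd11b1, which regenerates active glucocorticoid, had 0, 0.805 and 2.74 CPM in Pre-BMPs and 77.1, 66.2 and 51.9 CPM in Pro-BMPs, and fell by 7.82 (SE 1.5, limma adjusted p = 0.0077). Tlr4, the receptor for bacterial lipopolysaccharide, fell by 7.21 (SE 1.16, limma adjusted p = 0.00291), with 0.63, 0 and 0.0766 CPM in Pre-BMPs and 13.9, 13.4 and 9.21 CPM in Pro-BMPs. Thbs1, a secreted matrix glycoprotein, was spread widely within Pro-BMPs, at 97, 3.32 and 22.6 CPM, against 0 reads in all Pre-BMP libraries. It was at least 699-fold lower in Pre-BMPs against 3 reads per library, but was not called with voom weights (limma adjusted p = 0.203). Of the others, Nrg2 and Prss16 kept their calls under every alternative, F10 lost its call with the 6 libraries fitted alone (0.0552), and Clec5a, Csf1r, Cyp2j6 and Rab7b lost theirs without at least 3 different single libraries.

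All 3 chains of the IgE receptor were called higher in Pre-BMPs. Ms4a2, the beta chain, had 1042, 1070.1 and 1147 CPM in Pre-BMPs and 209.9, 172 and 223 CPM in Pro-BMPs, a difference of 2.44 (SE 0.305, limma adjusted p = 0.00056). Fcer1g, the gamma chain, had 232, 203 and 200.3 CPM in Pre-BMPs and 74.7, 72.6 and 108 CPM in Pro-BMPs, a difference of 1.34 (SE 0.146, limma adjusted p = 0.000212). The chains thus differed in size of change. The alpha chain was near 0 in Pro-BMPs, while beta and gamma chain RNA was present in Pro-BMPs, which were gated as FceRIa-.

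Of 28 genes of the signalling path below the receptor, 5 were higher and 1 lower, 21.4% called against 9.49% of all genes, with a median difference of 0.19. Lat2, a membrane adaptor (also called NTAL), had 117, 83 and 108 CPM in Pre-BMPs and 25.1, 13.1 and 17 CPM in Pro-BMPs, and rose by 2.52 (SE 0.214, limma adjusted p = 4.56e-05). Fyn, a kinase that acts beside Lyn at the receptor, rose by 1.67 (SE 0.176, limma adjusted p = 0.000175), at 83.8 ± 4.81 CPM in Pre-BMPs and 26.5 ± 4 in Pro-BMPs. Prkcb, a protein kinase C, fell by 1.09 (SE 0.221, limma adjusted p = 0.0102), at 18.5 ± 4.94 CPM in Pre-BMPs and 38.7 ± 4.05 in Pro-BMPs. The first kinases of the path were not called: Lyn had 77.7 ± 4.86 CPM in Pre-BMPs and 53.5 ± 12.9 in Pro-BMPs (limma adjusted p = 0.0907), and Syk had 118 ± 9.06 and 131 ± 6.22 (limma adjusted p = 0.652). The adaptor Lat stood at 41.6, 26.5 and 41.6 CPM in Pre-BMPs and 7.25, 4.57 and 7 CPM in Pro-BMPs, but its limma adjusted p was 0.311. Its SE of 1.39 came from the fit of all 12 libraries, and under 2 of the alternatives Lat was called. Lcp2 and Gab2, an adaptor and a scaffold of the path, were also called higher with weaker support. Lcp2 lost the call without Pre-BMP replicate 3 (limma adjusted p = 0.0525), and Gab2 lost it without any 1 library other than Pre-BMP replicate 2 (0.0678 to 0.141). The count of higher members was 3 without Pre-BMP replicate 1 and 2 without Pre-BMP replicate 3.

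Of 27 mast cell genes listed, 19 were measured, 9 of them higher and none lower (47.4% called, against 9.49% of all genes). Their median difference was 2.29, and 8 or 9 were higher whichever library was left out. Cpa3, the carboxypeptidase of mast cell granules, had 1652, 1485 and 1569 CPM in Pre-BMPs and 704, 618 and 735 CPM in Pro-BMPs. It rose by 1.2 (SE 0.171, limma adjusted p = 0.00135), and was already expressed in Pro-BMPs. Of 10 mast cell proteases listed, 4 were among the deposited genes, and all 4 were higher, with a median difference of 7.50. Tpsb2 and Tpsg1 had 0 reads in Pro-BMPs, so only reads elsewhere could bring them among the deposited genes. The count thus describes those 4 and not the proteases that are absent. The count of mast cell genes has the same limit. Its 9 higher members include these 4 proteases and Fcer1a, whose product was used for the gate. Levels in basophils parted: mean Cma1 fell to 0.554 CPM in basophils, against 141 in Pre-BMPs, while mean Cpa3 was 3584 CPM in basophils. Tpsg1, a membrane-anchored tryptase, had 1.12, 9.43 and 1.07 CPM in Pre-BMPs and 0 reads in Pro-BMPs, and was not called without Pre-BMP replicate 2 (limma adjusted p = 0.0774) or any 1 Pro-BMP library (0.0506 to 0.0574). Il1rl1, the receptor for IL-33, had 181, 145 and 153 CPM in Pre-BMPs and 56.5, 36.5 and 49.2 CPM in Pro-BMPs, groups that do not overlap, yet was not called (limma adjusted p = 0.49). Its SE of 1.34 came from the fit of all 12 libraries, and under 2 of the alternatives it was called. Mitf, a factor that mast cells need, had 4.11 ± 1.11 CPM in Pre-BMPs and 4.09 ± 2.69 in Pro-BMPs, with overlapping groups and a wide error on the log2 difference of 0.29 (SE 1.29, limma adjusted p = 0.939).

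Of 29 basophil genes, 12 were called higher, 1 lower and 16 not called (44.8% called, against 9.49% of all genes). Their median difference was 2.22. Without Pre-BMP replicate 1 or replicate 3, 6 were higher, and without Pro-BMP replicate 1 or replicate 2, 8 were. Mcpt8 (ENSMUSG00000022157, chromosome 14, 56082166 to 56085273, minus strand), a basophil serine protease, had 596, 536 and 642 CPM in Pre-BMPs and 102, 99.2 and 114 CPM in Pro-BMPs, and rose by 2.49 (SE 0.151, limma adjusted p = 5.88e-06). Ifitm1, a membrane protein of the interferon-induced family, had 919.9, 879.5 and 967 CPM in Pre-BMPs and 172, 133 and 224 CPM in Pro-BMPs, a difference of 2.42 (SE 0.153, limma adjusted p = 7.84e-06). Prss34, another basophil protease, had 1289, 829 and 1235 CPM in Pre-BMPs and 146, 53.1 and 99.4 CPM in Pro-BMPs, with a larger error on its difference of 3.58 (SE 0.722, limma adjusted p = 0.0101). The one member to fall was Cd69, an early activation antigen that holds cells in tissue, at 5.39, 18.8 and 14.8 CPM in Pre-BMPs and 52.8, 38.1 and 33.6 CPM in Pro-BMPs. It fell by 1.83 (SE 0.401, limma adjusted p = 0.0156), a call lost without Pro-BMP replicate 1 (0.0618).

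Of 15 enzymes and carriers of histamine and lipid mediators, 3 were higher and 1 lower (26.7% called, against 9.49% of all genes). Their median difference was 0.19. Slc18a2, the carrier that loads histamine into vesicles, had 409.6, 354 and 490 CPM in Pre-BMPs and 77.3, 65.6 and 100.4 CPM in Pro-BMPs, and rose by 2.37 (SE 0.228, limma adjusted p = 9.92e-05). Hdc, the enzyme that makes histamine, was at 874 ± 75.6 CPM in Pre-BMPs and 749 ± 18.7 in Pro-BMPs and was not called (limma adjusted p = 0.369). The loading carrier and the enzyme thus differed in result, though the difference between them was not tested. Cyp11a1, the enzyme that opens steroid synthesis, had 143, 94.3 and 153 CPM in Pre-BMPs and 14.1, 12.1 and 12.5 CPM in Pro-BMPs (log2 difference 3.31, SE 0.251, limma adjusted p = 2.05e-05). Lta4h (ENSMUSG00000015889, chromosome 10, 93453411 to 93484875, plus strand), which turns leukotriene A4 into the neutrophil attractant leukotriene B4, went the other way. It had 352, 353 and 321 CPM in Pre-BMPs and 1131, 1242 and 1131 CPM in Pro-BMPs, and fell by 1.77 (SE 0.0773, limma adjusted p = 4.16e-07). Alox5, which makes leukotriene A4, rose by 2.55 (SE 0.631, limma adjusted p = 0.0277), at 446, 389.6 and 442 CPM in Pre-BMPs and 74.7, 51.7 and 98.2 CPM in Pro-BMPs. Its call was lost without any 1 of the libraries other than Pro-BMP replicate 3, with limma adjusted p of 0.0653 to 0.0995.

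Genes of proteoglycan synthesis, which cover the core protein, chain building and sulfation, were mostly not called. Of 21, 4 were higher and 1 lower (23.8% called, against 9.49% of all genes), and the called ones all act in sulfation. Their median difference was 0.16. Papss2, which makes the sulfate donor, had 256, 203 and 249.6 CPM in Pre-BMPs and 76.5, 101 and 112 CPM in Pro-BMPs, a difference of 1.3 (SE 0.188, limma adjusted p = 0.00142). Ndst2, which mouse mast cells need to make heparin, rose by 1.56 (SE 0.303, limma adjusted p = 0.00817), at 164 ± 8.47 CPM in Pre-BMPs and 56.7 ± 14.5 in Pro-BMPs. Chst15, which makes oversulfated chondroitin chains, rose by 1.82 (SE 0.33, limma adjusted p = 0.00564), at 116 ± 29.5 and 33.8 ± 13.6 CPM in Pre-BMPs and Pro-BMPs. Chst12, a chondroitin sulfotransferase, fell by 1.05 (SE 0.131, limma adjusted p = 0.000552), at 75.8 ± 10.1 CPM in Pre-BMPs and 156 ± 4.22 in Pro-BMPs. The core protein serglycin, Srgn, was high in both, at 1106 ± 49.8 CPM in Pre-BMPs and 987 ± 10.8 in Pro-BMPs (limma adjusted p = 0.0863).

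Granule fusion and lysosome genes moved in both directions, 4 higher and 5 lower of 24 (37.5% called, against 9.49% of all genes). Stx3, a membrane fusion protein, rose by 1.2 (SE 0.242, limma adjusted p = 0.0102), at 158, 96.9 and 136 CPM in Pre-BMPs and 63.2, 42.8 and 63.8 CPM in Pro-BMPs. Rab27a, a small GTPase that brings granules to the membrane, fell by 1.18 (SE 0.186, limma adjusted p = 0.00259), at 48.5, 50.1 and 47.6 CPM in Pre-BMPs and 134, 103 and 96.9 CPM in Pro-BMPs. Rab3d, a GTPase of secretory granules, fell by 1.02 (SE 0.187, limma adjusted p = 0.00598). With single libraries left out, 4 or 5 members were lower and 1 or 2 higher (1 without Pre-BMP replicate 1 or Pro-BMP replicate 2).

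Of 29 neutrophil granule and progenitor genes, 21 were lower in Pre-BMPs and 1 was higher (75.9% called, against 9.49% of all genes), with a median difference of -1.90. Whichever library was left out, 17 to 19 were lower. The list, like the others, was chosen with earlier results of these data known, so its share is a description and no test. Elane, neutrophil elastase, had 346, 439 and 349.5 CPM in Pre-BMPs and 3771, 4398 and 3795 CPM in Pro-BMPs, and fell by 3.4 (SE 0.251, limma adjusted p = 1.93e-05). Prtn3, proteinase 3, had 314, 287 and 251 CPM in Pre-BMPs and 1733, 2038 and 1821 CPM in Pro-BMPs, and fell by 2.72 (SE 0.216, limma adjusted p = 2.91e-05). Ctsg, cathepsin G, fell by 1.2 (SE 0.102, limma adjusted p = 4.56e-05), at 742, 638 and 667 CPM in Pre-BMPs and 1597, 1619.7 and 1482 CPM in Pro-BMPs. None of these groups overlapped, and Elane RNA was 10.5 times as high in Pro-BMPs.

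Mpo, the peroxidase of the same granules, kept 4904, 4201 and 4052 CPM in Pre-BMPs, against 10775, 11377 and 10332 CPM in Pro-BMPs. It fell by 1.31 (SE 0.126, limma adjusted p = 0.000103), and the call was lost after quantile normalization, where the difference was 0.00 (limma adjusted p of 1). That step sets the ranked values of all libraries equal. Hp (ENSMUSG00000031722, chromosome 8, 109575128 to 109579172, minus strand), haptoglobin, fell by 3.83 (SE 0.145, limma adjusted p = 1.27e-07), at 15.4, 17.3 and 14.1 CPM in Pre-BMPs and 191, 228 and 246 CPM in Pro-BMPs. Alas1, the first enzyme of heme synthesis outside erythroid cells, had 142, 125 and 119 CPM in Pre-BMPs and 1069.5, 1028 and 1035 CPM in Pro-BMPs, and fell by 3.02 (SE 0.112, limma adjusted p = 1.27e-07). Mgst1, a membrane glutathione transferase, fell by 3.82 (SE 0.588, limma adjusted p = 0.00216), at 2.6 ± 0.621 CPM in Pre-BMPs and 36.4 ± 5.75 in Pro-BMPs. The falls ran from secreted granule proteins to enzymes of heme and glutathione use.

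A few members did not fall or were not called. Cebpa, a factor for granulocyte and monocyte progenitors, had 42.1 ± 5.38 CPM in Pre-BMPs and 33 ± 6.84 in Pro-BMPs (limma adjusted p = 0.368), with overlapping groups. Cebpe, which drives the later granules, had 11.5, 9.78 and 15.6 CPM in Pre-BMPs and 90.5, 69.3 and 77 CPM in Pro-BMPs, without overlap, and was not called (limma adjusted p = 0.138). Trem3, a receptor of myeloid cells, was not called either (limma adjusted p = 0.117), at 2.11, 6.86 and 7.08 CPM in Pre-BMPs and 84.2, 121 and 109 CPM in Pro-BMPs. The SEs of Cebpe (1.03) and Trem3 (1.61) came from the fit of all 12 libraries, and both genes were called under 3 of the alternatives. Nedd4, a ubiquitin ligase, was the member called higher (log2 difference 0.3, SE 0.082, limma adjusted p = 0.0425), and lost the call whichever library was left out (0.0772 to 0.126).

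Late neutrophil genes were mostly not called: 1 of 18 passed, or 5.56%, which is below the share of all genes. That gene was Pglyrp1, a peptidoglycan-binding protein, which fell by 2.39 (SE 0.167, limma adjusted p = 1.39e-05), at 35.8, 23.8 and 25.3 CPM in Pre-BMPs and 139.8, 150 and 148 CPM in Pro-BMPs. The summed level of the list was 623 to 927 CPM in Pre-BMP libraries and 808 to 889 CPM in Pro-BMP libraries, which overlap. The summed primary granule and progenitor list ran from 9679 to 11094 CPM in Pre-BMPs and from 26138 to 28834 CPM in Pro-BMPs.

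**Figure D3:**
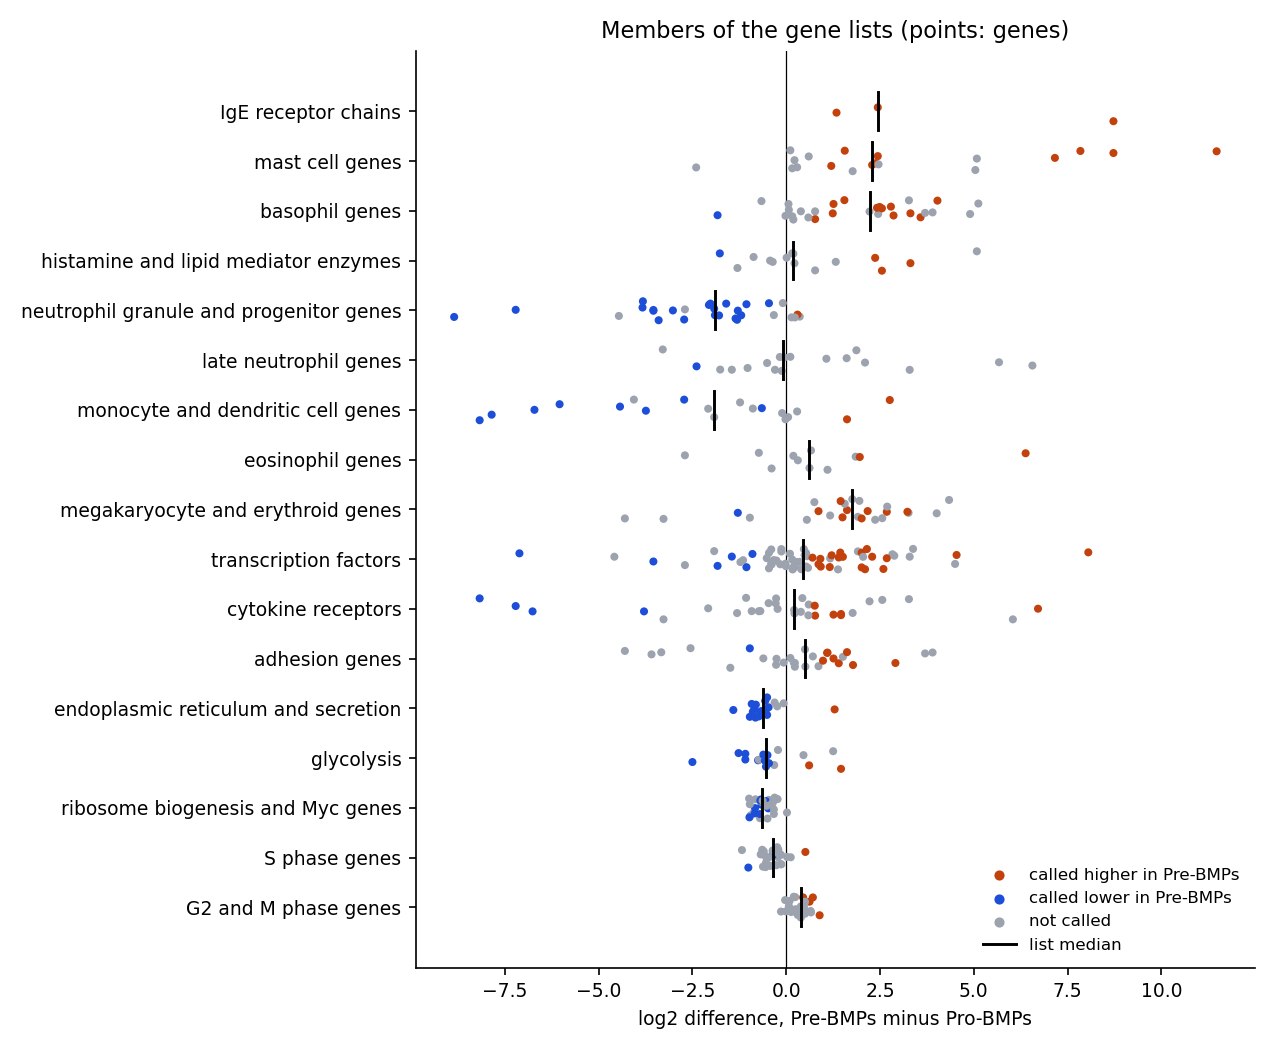
Log2 difference, Pre-BMPs minus Pro-BMPs (horizontal axis), of the members of 17 gene lists (vertical axis), with a point for each gene coloured by its call and a line at the list median. The mast cell, basophil and megakaryocyte and erythroid lists have medians of 2.29, 2.22 and 1.76, the neutrophil granule and progenitor list of -1.90, and the endoplasmic reticulum, glycolysis and ribosome biogenesis lists narrow clouds with medians of -0.62, -0.55 and -0.64.

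Markers of other cells that the gate could hold also differed, and their part in the results was not tested. Of 19 monocyte and dendritic cell genes, 8 were lower and 2 higher (52.6% called, against 9.49% of all genes, median -1.92). Their sum was 392 to 439.9 CPM in Pre-BMPs and 839.7 to 985 CPM in Pro-BMPs. Ly6c2, a surface protein of monocytes and their progenitors, had 16.7, 23.4 and 9.48 CPM in Pre-BMPs and 289, 359 and 356 CPM in Pro-BMPs, and fell by 4.43 (SE 0.297, limma adjusted p = 1.03e-05). Irf8, a factor for monocytes and dendritic cells, was low in both, at 3.29, 2.84 and 6.13 CPM in Pre-BMPs and 10.1, 13.2 and 23.2 CPM in Pro-BMPs (limma adjusted p = 0.472). Cx3cr1, the fractalkine receptor, went against the list, with 100.4, 130.1 and 145 CPM in Pre-BMPs and 11.4, 25.9 and 20.7 CPM in Pro-BMPs. Its rise of 2.76 (SE 0.447, limma adjusted p = 0.00296) was not carried on in basophils, whose mean was 10.1 CPM, and the DN-GMP mean was 14 CPM. Ccr2, the receptor for the chemokine CCL2, rose by 1.62 (SE 0.311, limma adjusted p = 0.00775) from a low base, at 5.92 ± 0.398 CPM in Pre-BMPs and 2.04 ± 0.889 in Pro-BMPs, and was not called with voom weights or with the 6 libraries fitted alone. The class II gene H2-Aa had 0 reads in all Pre-BMP libraries and 0.482, 1.53 and 1.4 CPM in Pro-BMPs, at least 19.4-fold lower in Pre-BMPs (limma adjusted p = 0.00373). Its class II partner H2-Ab1, at means of 38.5 CPM in Pre-BMPs and 31.3 in Pro-BMPs, was not called (limma adjusted p = 0.512). Nor was Cd74 of the same list (limma adjusted p = 0.878).

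The 11 eosinophil genes summed to 2299 to 3845 CPM in Pre-BMPs and 2005 to 3149 CPM in Pro-BMPs, most of it from the granule genes Prg2 and Epx. Neither was called: Prg2, major basic protein, had 1456, 1819 and 2206 CPM in Pre-BMPs and 1223, 1302 and 1928 CPM in Pro-BMPs (limma adjusted p = 0.824), and Epx, eosinophil peroxidase, had 348, 537 and 837 CPM in Pre-BMPs and 279.5, 272 and 563 CPM in Pro-BMPs (0.788). Replicate 3 was the highest for both genes in each population. Of the 11 members 2 were called higher (18.2%, against 9.49% of all genes): Ear2, a ribonuclease, and Ccr3, the eotaxin receptor. Each lost the call when any 1 of 5 libraries was dropped. Ear2 stood at 60.3, 99.5 and 117 CPM in Pre-BMPs and 18.2, 17.8 and 36.8 CPM in Pro-BMPs (log2 difference 1.96, SE 0.505, limma adjusted p = 0.0326, and 0.0502 to 0.142 without those libraries).

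Of 25 megakaryocyte and erythroid genes, 8 were higher and 1 lower (36.0% called, against 9.49% of all genes, median 1.76). Of the 25 genes, 19 were higher without overlap of the groups, against 16.0% of all genes. Their sum was 1759.6 to 1876 CPM in Pre-BMPs and 727 to 785 CPM in Pro-BMPs. Itga2b, the integrin chain CD41, had 465, 325 and 426 CPM in Pre-BMPs and 146, 103 and 147 CPM in Pro-BMPs (log2 difference 1.62, SE 0.285, limma adjusted p = 0.0048). Car2, a carbonic anhydrase, rose by 1.5 (SE 0.259, limma adjusted p = 0.00443), at 135, 143 and 147 CPM in Pre-BMPs and 53.5, 43.9 and 53.2 CPM in Pro-BMPs. Tfrc, the transferrin receptor, fell by 1.29 (SE 0.244, limma adjusted p = 0.00709), at 56.6, 40.6 and 57.1 CPM in Pre-BMPs and 147, 138 and 95.2 CPM in Pro-BMPs. Several of these genes are also used by mast cells and basophils, and 5 or 6 were higher with 1 library left out (5 without Pre-BMP replicate 2, Pre-BMP replicate 3 or Pro-BMP replicate 2).

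Of 21 stem and multipotent progenitor genes, 4 were higher and none lower (19.0% called, against 9.49% of all genes). The count was 4 whichever library was left out. Adgrg1, an adhesion receptor, rose by 1.01 (SE 0.0874, limma adjusted p = 5.06e-05), at 913 ± 64 CPM in Pre-BMPs and 454 ± 45.9 in Pro-BMPs. Angpt1, the ligand of the receptor Tie2, had 229.6, 242 and 279.7 CPM in Pre-BMPs and 101, 77.9 and 81.4 CPM in Pro-BMPs (log2 difference 1.53, SE 0.194, limma adjusted p = 0.000615). Of 5 stromal and endothelial genes 1 was called, Vim, which encodes vimentin, higher at 386 ± 47.1 CPM in Pre-BMPs and 170.3 ± 18.3 in Pro-BMPs (limma adjusted p = 7.44e-05). The stromal and endothelial list summed to 529 to 670.4 CPM in Pre-BMPs and 273 to 331 CPM in Pro-BMPs. Vim was its largest member in both. Lymphoid genes summed to 646 to 711 CPM in Pre-BMPs and 912 to 1022 CPM in Pro-BMPs, nearly all of it Nkg7, a granule protein of cytotoxic and myeloid cells that fell by 0.46 (SE 0.0965, limma adjusted p = 0.0119). Of the 8 lymphoid genes, 1 was higher and 3 lower, but none was lower without Pre-BMP replicate 3 or Pro-BMP replicate 2, and 1 was without Pro-BMP replicate 1 or 3.

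Of 66 transcription factors of the blood system, 18 were higher and 6 lower (36.4% called, against 9.49% of all genes), with a median of 0.43. Runx1 (ENSMUSG00000022952, chromosome 16, 92601466 to 92826149, minus strand), which blood formation needs, had 235, 214 and 284 CPM in Pre-BMPs and 82.2, 80.2 and 93.2 CPM in Pro-BMPs, and rose by 1.51 (SE 0.112, limma adjusted p = 1.96e-05). Gata2 (ENSMUSG00000015053, chromosome 6, 88193891 to 88207032, plus strand), a factor that basophils and mast cells need, had 904, 597 and 809.7 CPM in Pre-BMPs and 207, 95.6 and 190.2 CPM in Pro-BMPs. It rose by 2.29 (SE 0.263, limma adjusted p = 0.000301), and replicate 2 was the lowest library of each population. Gata3 (ENSMUSG00000015619, chromosome 2, 9857078 to 9890034, minus strand), best known from T cells, had 1.5, 3.8 and 3.1 CPM in Pre-BMPs and 0 reads in Pro-BMPs, at least 47.0-fold higher against 3 reads per library (limma adjusted p = 0.000287). Gata1, their relative in erythroid and mast cells, had 212, 213 and 191 CPM in Pre-BMPs and 43.5, 58.8 and 63.9 CPM in Pro-BMPs, but was not called (log2 difference 1.91, SE 0.851, limma adjusted p = 0.207). This SE came from the fit of all 12 libraries, and under 2 of the alternatives Gata1 was called.

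Lmo4 (ENSMUSG00000028266, chromosome 3, 144188530 to 144205220, minus strand), a LIM-only adaptor of transcription complexes, had 973, 752 and 967 CPM in Pre-BMPs and 222, 181 and 224 CPM in Pro-BMPs, and rose by 2.1 (SE 0.16, limma adjusted p = 2.05e-05). Its relative Lmo2 did the opposite, falling by 1.45 (SE 0.14, limma adjusted p = 0.000103), with 72.6, 93 and 69.5 CPM in Pre-BMPs and 236, 196 and 206 CPM in Pro-BMPs. The related repressors Gfi1 and Gfi1b parted too. Gfi1b, the erythroid and megakaryocyte member, had 150.1, 114 and 116 CPM in Pre-BMPs and 34.4, 20.2 and 43.7 CPM in Pro-BMPs and rose by 2.01 (SE 0.325, limma adjusted p = 0.00296), while Gfi1 fell by 3.54. Spi1, which encodes PU.1, fell by 0.9 (SE 0.116, limma adjusted p = 0.000672), at 136, 119 and 110.5 CPM in Pre-BMPs and 212, 229 and 242 CPM in Pro-BMPs. Cebpd, a C/EBP factor of myeloid cells, fell by 1.06 (SE 0.179, limma adjusted p = 0.00377), at 24.2 ± 4.02 CPM in Pre-BMPs and 50.5 ± 7.94 in Pro-BMPs. Each of these groups was free of overlap.

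Further factors rose. Id2, an inhibitor of E proteins, had 48.4, 38.6 and 31.7 CPM in Pre-BMPs and 5.7, 5.78 and 8.18 CPM in Pro-BMPs (log2 difference 2.59, SE 0.354, limma adjusted p = 0.000978). Ets1, an ETS factor of lymphocytes, rose by 2.01 (SE 0.354, limma adjusted p = 0.00479), and its mean was 1031 CPM in basophils, against 75.7 in Pre-BMPs and 19.3 in Pro-BMPs. Stat5a and Stat5b, which carry the signal of IL-3 and related cytokines, rose by 0.92 (SE 0.175, limma adjusted p = 0.00749) and 0.91 (SE 0.146, limma adjusted p = 0.00294). They are neighbouring and near-identical genes, so reads could be split between them in ways the table does not show. Sox4, a factor of early progenitors, rose by 1.21 (SE 0.134, limma adjusted p = 0.000227), at 245 ± 32 CPM in Pre-BMPs and 105 ± 5.58 in Pro-BMPs. Myc and Myb, which drive growth and the progenitor state, were lower without overlap of the groups, and were not called (limma adjusted p = 0.0509 and 0.0524). Myc was called under 3 of the alternatives and Myb under 4.

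Among 32 cytokine receptor genes, 6 were higher and 4 lower (31.2% called, against 9.49% of all genes, median 0.21). Those lower are receptors of neutrophil and monocyte growth and of IL-6. Csf2rb, the common beta chain for IL-3, IL-5 and GM-CSF, had 335, 275 and 379 CPM in Pre-BMPs and 122, 114 and 184 CPM in Pro-BMPs, and rose by 1.26 (SE 0.245, limma adjusted p = 0.00828). Csf2rb2, its near-identical copy specific to IL-3, was not called (limma adjusted p = 0.0517), though it was under 6 of the alternatives. How shared reads were split between the copies is uncertain. Il17ra, a chain of the IL-17 and IL-25 receptors, had 259, 216 and 289 CPM in Pre-BMPs and 110.2, 78.3 and 89.1 CPM in Pro-BMPs (log2 difference 1.46, SE 0.165, limma adjusted p = 0.000259). Tgfbr2, the TGF-beta receptor that binds the ligand, rose by 1.46 (SE 0.158, limma adjusted p = 0.000199), at 72, 70.8 and 70.4 CPM in Pre-BMPs and 25.7, 27.6 and 24.2 CPM in Pro-BMPs. Beside Csf3r, the falls were Csf1r, Il6ra and Il6st, all at under 10 CPM in each Pre-BMP library. Csf1r, the receptor of the macrophage growth factor M-CSF, had 0, 0 and 9.84 CPM in Pre-BMPs and 25, 34.2 and 26.5 CPM in Pro-BMPs. Its limma adjusted p was 0.0306, 2.38e-05 without Pre-BMP replicate 3, the library with reads, and 0.0718 to 0.106 without any other. Without 1 of the libraries other than Pre-BMP replicate 3, Csf3r was the single receptor called lower.

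Of 14 cytokine genes, 5 were higher and 1 lower (42.9% called, against 9.49% of all genes). Csf1, the M-CSF ligand, had 139.8, 118 and 179.8 CPM in Pre-BMPs and 43.6, 20.4 and 39.1 CPM in Pro-BMPs, a rise of 2.14 (SE 0.342, limma adjusted p = 0.00281). Ligand and receptor thus differed in opposite directions. Il6, interleukin 6, rose by 2.79 (SE 0.466, limma adjusted p = 0.00366), at 20.4, 13.6 and 30.9 CPM in Pre-BMPs and 5.15, 1.9 and 2.63 CPM in Pro-BMPs. Il4, a cytokine that basophils release, had 9.78, 13.1 and 11.6 CPM in Pre-BMPs and 0.356, 0.172 and 5.09 CPM in Pro-BMPs (log2 difference 4.03, SE 0.966, limma adjusted p = 0.0245). Pro-BMP replicate 3 stood apart there: without it the limma adjusted p was 0.000326, and without any other library it was 0.0591 to 0.0869. Hgf and Osm, called higher, and Vegfa, called lower, lost their calls without 4 or 5 of the 6 libraries in turn, and with single libraries left out 2 to 5 cytokines were higher (2 without Pre-BMP replicate 1, Pre-BMP replicate 3 or Pro-BMP replicate 2, and 3 without Pre-BMP replicate 2 or Pro-BMP replicate 1).

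Adhesion genes were mostly higher where called, 8 higher and 1 lower of 29 (31.0%, against 9.49% of all genes, median 0.50). Itgb7 (ENSMUSG00000001281, chromosome 15, 102215995 to 102231944, minus strand), the beta chain of the gut-homing integrin, had 212, 180.2 and 206 CPM in Pre-BMPs and 26.3, 18 and 38.9 CPM in Pro-BMPs, and rose by 2.91 (SE 0.257, limma adjusted p = 5.9e-05). Its partner chain Itga4 rose by 1.09 (SE 0.222, limma adjusted p = 0.0106), at 222, 230.1 and 336 CPM in Pre-BMPs and 139, 105 and 122 CPM in Pro-BMPs, and missed the threshold without Pro-BMP replicate 2 (0.0504). Selplg, the ligand of selectins, rose by 0.98 (SE 0.113, limma adjusted p = 0.000311), at 337 ± 23.7 CPM in Pre-BMPs and 171 ± 17.7 in Pro-BMPs. Ctnna1, the alpha-catenin that ties E-cadherin to actin, rose by 1.4 (SE 0.216, limma adjusted p = 0.00213), at 91.7, 71.1 and 94.7 CPM in Pre-BMPs and 25.8, 45.3 and 28.6 CPM in Pro-BMPs. Cd44, the hyaluronan receptor, fell by 0.97 (SE 0.193, limma adjusted p = 0.00927), at 54.5 ± 1.56 CPM in Pre-BMPs and 107 ± 10.7 in Pro-BMPs. With Pro-BMP replicate 2 left out, 5 adhesion genes were higher.

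Most genes listed for the secretory pathway were called lower. Of 22 endoplasmic reticulum and secretion genes, 18 were lower and 1 higher (86.4% called, against 9.49% of all genes). Their median difference was -0.62, and 14 to 18 were lower with single libraries left out. Pdia6, a protein disulfide isomerase, had 580.1, 555 and 487 CPM in Pre-BMPs and 979, 986 and 895 CPM in Pro-BMPs, and fell by 0.82 (SE 0.0702, limma adjusted p = 4.7e-05). Sdf2l1, a cofactor of the lumenal chaperone, fell by 1.41 (SE 0.149, limma adjusted p = 0.000175), at 141, 145 and 106 CPM in Pre-BMPs and 319, 374 and 341 CPM in Pro-BMPs. Hspa5, that chaperone (BiP), had 962, 937 and 803 CPM in Pre-BMPs and 1666, 1761 and 1561 CPM in Pro-BMPs, a log2 difference of -0.89 (SE 0.108, limma adjusted p = 0.000471). Ssr1, a subunit of the translocon-associated complex, fell by 0.73 (SE 0.0746, limma adjusted p = 0.000145). Calr, calreticulin, fell by 0.51 (SE 0.064, limma adjusted p = 0.000587). The one gene higher was Ddit3, which encodes the stress factor CHOP, at 24 ± 2 CPM in Pre-BMPs and 9.85 ± 1.11 in Pro-BMPs, and it lost the call whichever library was left out (limma adjusted p of 0.0639 to 0.0883).

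Of 18 glycolysis genes, 10 were called lower, 2 higher and 6 not called (66.7% called, against 9.49% of all genes). Their median difference was -0.55, and 9 or 10 were lower when a library was left out. Hk3 (ENSMUSG00000025877, chromosome 13, 55005985 to 55021385, minus strand), the hexokinase typical of myeloid cells, had 55.7, 55.2 and 58 CPM in Pre-BMPs and 348, 323 and 289 CPM in Pro-BMPs. It fell by 2.5 (SE 0.122, limma adjusted p = 1.02e-06), with almost no spread in Pre-BMPs. Pgam1, phosphoglycerate mutase, fell by 1.27 (SE 0.0943, limma adjusted p = 1.96e-05), at 71.6, 68.9 and 67.7 CPM in Pre-BMPs and 163, 178 and 161 CPM in Pro-BMPs. Pkm, pyruvate kinase, fell by 1.09 (SE 0.0923, limma adjusted p = 4.56e-05), and Gapdh by 0.5 (SE 0.07, limma adjusted p = 0.00114). Hk1, the hexokinase found in most tissues, rose by 0.61 (SE 0.15, limma adjusted p = 0.0277), so the hexokinases differed in direction. Its call was lost without any 1 library other than Pre-BMP replicate 2 (0.0719 to 0.0977), and no more than 1 glycolysis gene was higher with a library left out.

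Of 30 ribosome biogenesis genes, 11 were called lower and none higher (36.7%, against 9.49% of all genes, median -0.64). Of the 30 genes, 27 were lower without overlap of the groups, against 16.0% of all genes. The count of calls was sensitive to single libraries, at 3 without Pro-BMP replicate 2, 4 without Pre-BMP replicate 3, 5 without Pro-BMP replicate 1 and 7 without Pre-BMP replicate 1. Ncl, nucleolin, had 591, 628 and 543 CPM in Pre-BMPs and 948, 949 and 923 CPM in Pro-BMPs, and fell by 0.68 (SE 0.0925, limma adjusted p = 0.000946). Mybbp1a, a nucleolar partner of Myb, fell by 0.84 (SE 0.141, limma adjusted p = 0.00367). None of 28 cytosolic ribosomal protein genes was called with limma, with a median of -0.11 and 6 lower without overlap (16.0% of all genes were). Of these genes 4 had an unadjusted limma p under 0.05, voom weights called 1 lower, and a fit of the 6 libraries alone called 2 lower.

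Few S phase or G2 and M phase genes were called. The S phase median was -0.35 and the G2 and M phase median 0.39, against 0.0204 for all genes. Summed S phase levels were 3909.6 to 4657 CPM in Pre-BMPs and 5034 to 5183 CPM in Pro-BMPs. Summed G2 and M phase levels were 4422 to 5312 CPM in Pre-BMPs and 3595 to 4058 CPM in Pro-BMPs. Of 29 S phase genes, 1 was higher and 2 lower (10.3%, near the 9.49% of all genes), while 18 were lower without overlap (16.0% of all genes were). The lower count was 4 without Pre-BMP replicate 1 and 1 without any other library. Rrm2, part of the enzyme that makes deoxynucleotides, fell by 1.01 (SE 0.126, limma adjusted p = 0.00054), at 147, 125 and 133 CPM in Pre-BMPs and 249, 276 and 291 CPM in Pro-BMPs. Rfc2, a subunit of the clamp loader, rose by 0.51 (SE 0.0742, limma adjusted p = 0.00154). Of 28 G2 and M phase genes, 4 were higher and none lower (14.3% called, against 9.49% of all genes), and 16 were higher without overlap, against 16.0% of all genes. Cenpa, the centromeric histone, rose by 0.89 (SE 0.171, limma adjusted p = 0.00756), at 295, 344 and 367 CPM in Pre-BMPs and 171, 196 and 172 CPM in Pro-BMPs. The count was 1 without Pre-BMP replicate 2 or 3 or Pro-BMP replicate 1 or 2, and 2 without Pro-BMP replicate 3. Of 12 D cyclins and CDK inhibitors, 3 were higher and 1 lower (33.3% called, against 9.49% of all genes). When a library was left out, 1 or 2 were higher. Cdkn1b, the CDK inhibitor p27, rose by 1.6 (SE 0.213, limma adjusted p = 0.000842), at 24.1, 29.3 and 26.8 CPM in Pre-BMPs and 8.3, 10.8 and 7.62 CPM in Pro-BMPs. Ccnd2, cyclin D2, fell by 0.83 (SE 0.139, limma adjusted p = 0.00375), at 111 ± 13.7 CPM in Pre-BMPs and 197 ± 23.8 in Pro-BMPs.

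The lists share members, and the remaining ones held few calls. Immediate early genes had 3 of 16 higher (18.8%, against 9.49% of all genes). Among them was Ier3, at 46.5 ± 4.85 CPM in Pre-BMPs and 14.9 ± 3.3 in Pro-BMPs (log2 difference 1.66, SE 0.193, limma adjusted p = 0.000321). Interferon response genes had 2 of 20 called, near the 9.49% of all genes: Ifitm1 and Ifitm3 were higher, and 1 of them was higher without any library other than Pro-BMP replicate 3. Sterol and fatty acid synthesis had 2 of 25 called, also near that share, both lower: Fasn, fatty acid synthase, and Sc5d, a sterol desaturase that lost its call without Pre-BMP replicate 2 or any Pro-BMP library. Fasn fell by 0.83 (SE 0.143, limma adjusted p = 0.00432), at 65.5 ± 5.47 CPM in Pre-BMPs and 117 ± 14.7 in Pro-BMPs.

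Whether a change belonged to this step was asked by testing the change from Pro-BMPs to Pre-BMPs minus the change from DN-GMPs to Pro-BMPs, in the same limma fit. The contrast takes the Pro-BMP libraries into both changes, with opposite sign. It was called in 203 genes (1.39%), 73 with a positive (0.501%) and 130 with a negative (0.893%) difference of the changes. The number was 89 without Pro-BMP replicate 1, 107 without Pro-BMP replicate 2 and 126 without Pro-BMP replicate 3. Of the 29 neutrophil granule and progenitor genes, 14 had a negative difference of the changes and 1 a positive one. Lta4h changed by -1.77 at this step and 0.20 at the one before, a difference of -1.97 (SE 0.134, limma adjusted p = 5.26e-05). Alas1 changed by -3.02 and -0.07 (difference -2.95, SE 0.194, limma adjusted p = 5.26e-05), and Gfi1 by -3.54 and 0.07 (difference -3.61, SE 0.562, limma adjusted p = 0.0086). Elane changed by -3.4 and -0.1 (difference -3.31, SE 0.434, limma adjusted p = 0.00331). For Csf3r the difference of the changes, -7.03, was not called (SE 1.65, limma adjusted p = 0.0696).

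Genes of the IgE receptor path moved in both directions in this contrast. Fcer1g changed by 1.34 at this step and -0.54 at the one before (difference 1.88, SE 0.253, limma adjusted p = 0.00374), and Lat2 by 2.52 and -0.27 (difference 2.78, SE 0.37, limma adjusted p = 0.00351). Ms4a2 and Cpa3 had their larger change before it, with differences of -5.05 (SE 0.529, limma adjusted p = 0.000902) and -2.61 (SE 0.297, limma adjusted p = 0.0015). Cdh1 and Cyp11a1 did so too on the log2 scale, with differences of -7.19 (SE 0.853, limma adjusted p = 0.00183) and -6.87 (SE 0.434, limma adjusted p = 5.26e-05). DN-GMPs were sorted without CDH1 and Pro-BMPs with it, so the gate itself bears on the earlier Cdh1 change. In CPM, mean Cdh1 rose from 42.8 in Pro-BMPs to 147 in Pre-BMPs. Tpsb2, with 0 reads in DN-GMPs and Pro-BMPs alike, was called for this step (limma adjusted p = 0.00799). For Fcer1a the difference of 2.1 was not called (SE 0.981, limma adjusted p = 0.486), as its 0.419 to 3.4 CPM in Pro-BMPs already stood above the 0 reads of DN-GMPs. Runx1 (difference 1.13, SE 0.194, limma adjusted p = 0.0149) and Sox4 (1.41, SE 0.233, limma adjusted p = 0.0113) changed more at this step, and for Gata2 the difference was not called (limma adjusted p = 0.817). Of 22 endoplasmic reticulum genes 7, and of 18 glycolysis genes 4, had a called negative difference, against 0.893% of all genes. Among them were Pdia6 (-0.68, SE 0.122, limma adjusted p = 0.0188) and Hk3 (-1.8, SE 0.211, limma adjusted p = 0.0017).

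**Figure D4:**
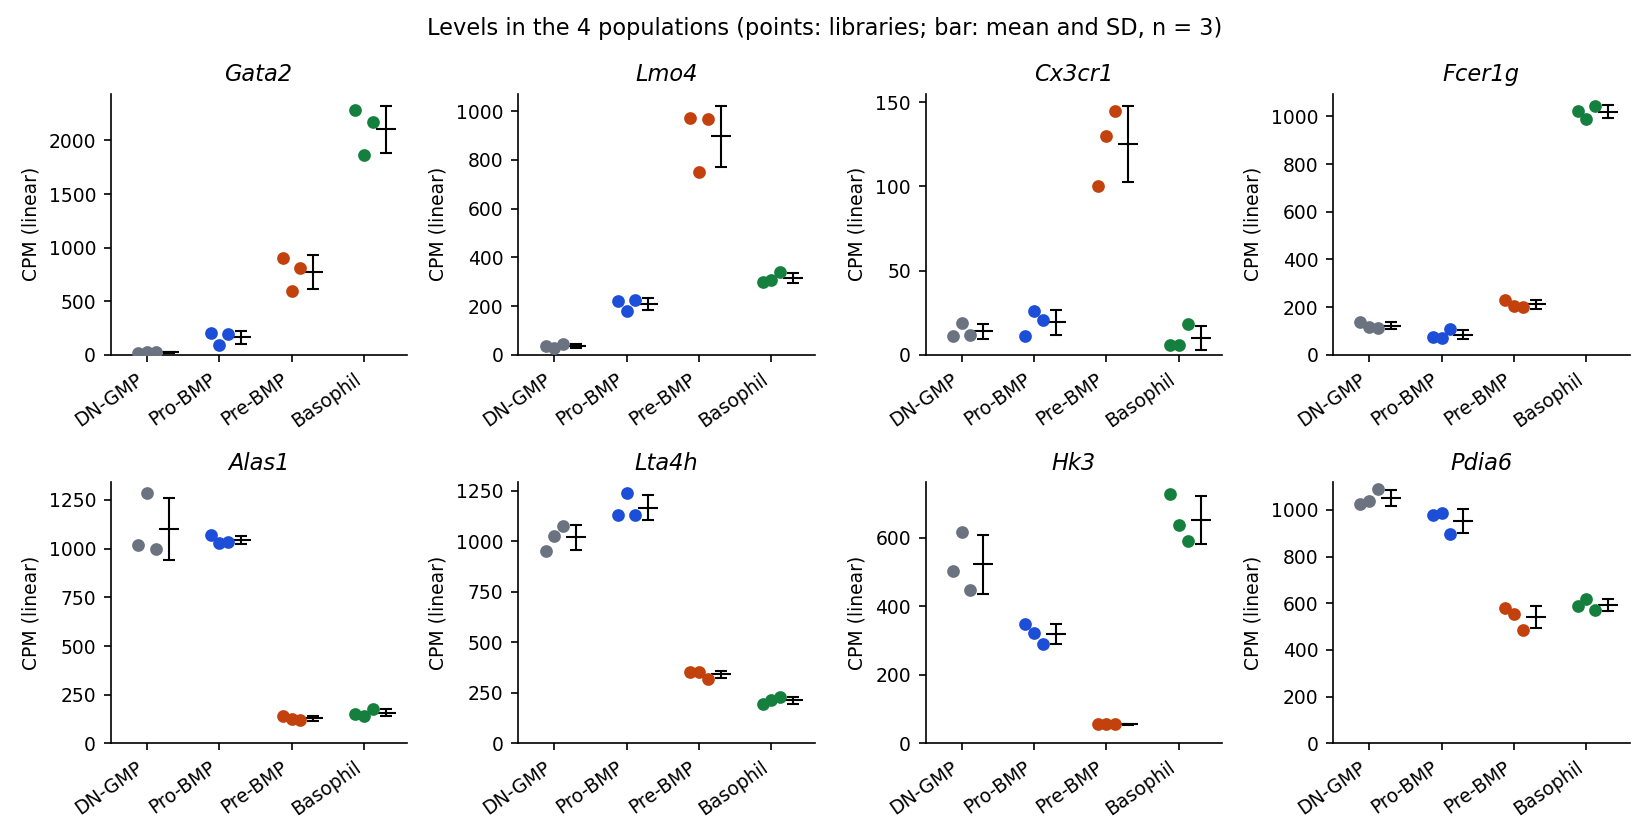
CPM of 8 genes (vertical axes, linear, from 0) in the 12 libraries of the 4 populations in the order of the path (horizontal axes), where each dot is a library and the bar is the mean of 3 with its SD. Gata2 climbs through to basophils, Lmo4 and Cx3cr1 peak in Pre-BMPs at 898 and 125 CPM, Alas1 and Lta4h stay level up to Pro-BMPs and stand at 129 and 342 CPM in Pre-BMPs, and Hk3 and Pdia6 are lower in Pre-BMPs than in Pro-BMPs.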

How the data were processed

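RNA from the sorted cells had been made into libraries with SmartSeq v4 and Nextera XT kits, per the labels' protocols; these do not mark the strand, so reads of overlapping genes on opposite strands are not separated. The submitters' processing notes name Trimmomatic, STAR, HTSeq and deepTools, while the genome build and annotation of the counts are not stated in the sources used here. The authors deposited 1 table of log2 values for 14560 genes in 12 libraries. The values themselves show what they are: log2 of the reads plus 0.5 over a scaled library size. Reversing this gave whole reads for 100% of the values within 0.001, and these reads gave the CPM and the library totals. The table's 3 rows of reads given to no gene were left out; reads outside features took 6.65% to 12.6% of the libraries, ambiguous ones 3.63% to 4.14% and those not uniquely placed 8.51% to 12.1%. Gene positions are from GENCODE M21 (GRCm38), where 14515 of the 14560 gene IDs were found.

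The deposited log2 values were fitted with limma 3.58.1 in R 4.3.3, with a mean for each population over all 12 libraries and variances moderated towards a trend with the mean. Two-sided p-values were adjusted by Benjamini and Hochberg over all 14560 genes. Each SE thus draws on the spread within every population, also for genes whose Pre-BMP and Pro-BMP libraries stand apart. A difference is that of mean log2 values. For genes near 0 it depends on the reads added before the log. A library at 0 reads can make it larger than the change in mean CPM. Csf1r had a log2 difference of -8.17, with mean levels of 3.28 CPM in Pre-BMPs and 28.6 CPM in Pro-BMPs. The ranking of the largest rises and falls uses these differences and so can favour genes with 0 reads. Folds against 0 reads were set against 3 reads per library, which covers counting error only. Samples were grouped by the sort labels. The gene lists and markers were chosen with earlier results of these data known. Genes named are those of the gate, the markers, the 12 largest rises and falls among called genes with at least 10 CPM and no overlap, and list members in order of adjusted p or of known role. Alternatives were 5 reads added, a filter at 1 CPM, quantile normalization, the contrast's populations alone, voom weights, no trend, the replicate number as a block, and each library left out in turn.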

Additional observations from a re-analysis of the deposited data

How the results depend on the processing

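With 1 library of the contrast left out, the number of genes called was 778 to 1093, with 363 to 605 higher and 362 to 520 lower, against 1382, 699 and 683 with all of them. Moderation without a trend called 933 genes, 444 of them lower. The other alternatives called 1216 to 1788 genes, and none called a gene in the opposite direction. Genes higher in Pre-BMPs made up 45.7% to 55.4% of calls, against 50.6%. The difference of the steps was called in 89 to 223 genes with 1 library left out, against 203. The replicate numbers were not taken to pair the libraries: same-numbered Pre-BMP and Pro-BMP libraries correlated at 0.0486, 0.108 and 0.127 in their deviations from the population means, over 8128 genes, and each correlated best with its own number, which is a hint from the data and not the design. With the replicate block 1216 genes were called, 617 higher and 599 lower, and 159 for the difference of the steps. Of 160 genes named as called, 97 kept the call under every alternative and 63 lost it under at least 1; of 24 not called, 13 passed under at least 1. The cause of these changes was not tested beyond the smaller groups. With 3 libraries a population, genes near 0 reads had the widest errors, and a call not made does not show equal levels.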
